A study of Homo sapiens with 36 samples.

Results

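Transcripts of 10 genes of the bone morphogenetic protein (BMP) pathway were followed through induced neuronal differentiation in cells with an intact or an edited RAI1 gene: the ligands BMP2, BMP3, BMP4 and BMP7, the inhibitory SMADs SMAD6 and SMAD7, and the 4 ID genes ID1, ID2, ID3 and ID4. They were taken by symbol from a table of 62710 genes, and each of the 10 was found and passed the filter on low counts in every comparison. The group was chosen by a measured value, the near-absence of BMP3 from both edited lines at day 3, so BMP3 values that involve day 3 are a description, with no test.

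All cells came from H9, a human embryonic stem cell line, in which doxycycline switched on NGN2, the neurogenic transcription factor encoded by NEUROG2. The 3 genotypes were WT, HET (RAI1+/-) and KO (RAI1-/-), and each gave 4 libraries on day 0 of differentiation, 4 on day 3 and 4 on day 7, 36 in all. Stem cells were kept in mTeSR Plus on Geltrex, and neuronal cultures in Neurobasal-A with GlutaMAX, B27, GDNF, NT3 and CultureOne, in all 3 genotypes alike. The number of clones behind each genotype is not given in the sources used here, so genotype and clone cannot be told apart. The replicates are labelled biological, and p-values measure the spread between these libraries. RAI1 encodes a chromatin-associated regulator of transcription.

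BMP ligands are secreted dimers that bind type I and type II serine/threonine kinase receptors, which phosphorylate SMAD1, SMAD5 and SMAD9. Together with SMAD4 these enter the nucleus and activate, among others, the ID genes and the inhibitory SMADs, which in turn dampen the pathway. ID proteins have a helix-loop-helix domain but no DNA-binding region, and they sequester E proteins, the partners that proneural factors such as NGN2 need to bind DNA. In pluripotent cells BMP signalling is known to oppose the neural fate.

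The promoters of the ID genes are shown because these 4 genes, classical direct BMP targets, split into pairs with different courses below. Each line is the 250 bases before the RefSeq transcription start (GRCh38.p14), 5′ to 3′ on the gene's strand, with capitals for a match on either strand to GGCGCC or GTCTG, letters found in BMP- and SMAD-bound elements, or to TATAAA.
ID1: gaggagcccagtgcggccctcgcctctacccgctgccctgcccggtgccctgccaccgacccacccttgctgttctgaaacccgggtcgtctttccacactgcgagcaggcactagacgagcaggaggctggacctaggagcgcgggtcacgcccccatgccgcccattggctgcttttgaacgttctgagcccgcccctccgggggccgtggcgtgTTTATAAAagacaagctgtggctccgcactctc
ID2: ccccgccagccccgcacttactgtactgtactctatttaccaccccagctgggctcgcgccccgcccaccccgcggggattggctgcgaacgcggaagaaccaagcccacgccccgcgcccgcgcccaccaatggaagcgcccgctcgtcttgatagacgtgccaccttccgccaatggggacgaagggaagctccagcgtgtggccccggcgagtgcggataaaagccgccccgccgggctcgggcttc
ID3: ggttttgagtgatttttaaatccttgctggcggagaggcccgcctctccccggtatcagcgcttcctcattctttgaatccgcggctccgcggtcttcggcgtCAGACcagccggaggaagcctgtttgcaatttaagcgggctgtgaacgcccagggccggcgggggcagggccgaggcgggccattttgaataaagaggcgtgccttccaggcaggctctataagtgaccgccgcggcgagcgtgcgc
ID4: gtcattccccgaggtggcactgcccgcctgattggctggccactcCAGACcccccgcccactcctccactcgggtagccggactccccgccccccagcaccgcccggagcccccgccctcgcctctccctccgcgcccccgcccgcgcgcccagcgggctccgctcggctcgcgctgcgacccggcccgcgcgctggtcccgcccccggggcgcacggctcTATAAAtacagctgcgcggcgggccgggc

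The windows are chr20:31605039-31605288 (+) for ID1, chr2:8681806-8682055 (+) for ID2, chr1:23559502-23559751 (-) for ID3 and chr6:19837120-19837369 (+) for ID4. ID1 and ID4 held TATAAA, which in ID4 begins 29 bases before the transcription start. In ID1 a match on the other strand, printed as TTTATA, begins 33 bases before it. The match on the gene's own strand overlaps that one and begins nearer to the start. GTCTG was present once in ID3 and once in ID4, as its complement CAGAC at positions 104 and 46 counted from the first base printed. GGCGCC was in none of the 4. Among 35116 RefSeq promoter windows of 300 bases (250 before and 50 after the start), 11.5% held TATAAA, 45.3% GTCTG and 19.2% GGCGCC. CG dinucleotides numbered 22, 33, 27 and 39 in the 300-base windows of ID1, ID2, ID3 and ID4, against a median of 14 over all windows. These matches describe the letters of the windows and do not mark a bound site. Sequence outside the windows was not searched, so a missing match does not show that a gene lacks such an element.

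Library totals ranged from 23.9 to 56.7 M counts, and 5 small structural RNAs took between 2.84% and 27.47% of a library. Levels are in CPM, counts scaled to the size of the library with TMM factors, and library values are listed in the order of replicates 1 to 4. The pluripotency factor POU5F1 was at 351 ± 61.2 CPM (SD, n = 4) in WT at day 0, 10.3 ± 13.5 at day 3 and 0.113 ± 0.0483 at day 7, and the neuronal tubulin gene TUBB3 stood at 110 ± 49.0, 919 ± 64.8 and 3740 ± 1260. RAI1 itself was not lower in the edited lines: on day 3 the WT libraries ranged from 41.3 to 79.1 CPM, the HET libraries from 38.8 to 85.2 and the KO libraries from 38.0 to 108. The position of the edits is not given in the sources used here, so the transcript count does not check the genotype labels. NEUROG2 at day 3 was 22300 ± 2540 CPM in WT, 16000 ± 1460 in HET and 8960 ± 1410 in KO. In the same order it was 21.4 ± 10.4, 7.93 ± 3.12 and 1.87 ± 0.348 CPM at day 0. At day 7 it was 63.4 ± 19.9, 70.0 ± 14.3 and 24.6 ± 5.36. Its part in the differences below was not tested. Replicate 4 of day 3 had more POU5F1 than the other replicates in each genotype: 30.5 CPM against 2.49 to 5.28 in WT, 32.1 against 0.537 to 1.1 in HET, and 6.49 against 0.619 to 1.59 in KO. At day 7, replicate 1 of WT had the highest summed level of 5 markers of dividing cells (196 CPM against 30.9 to 92.9), and replicate 1 of HET the largest share of structural RNAs (27.47% against 2.84% to 13.35%). In bulk RNA, fewer cells of a type and less RNA per cell cannot be told apart.

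BMP3 (chr4:81030965-81057531, plus strand) encodes an atypical ligand that is known to antagonise BMP and activin signalling. In WT it was present at 1.66, 1.27, 3.87 and 2.65 CPM at day 0 and at 398, 161, 195 and 96.3 CPM at day 3. In HET at day 3 it was at 0.098, 0.0998, 0.185 and 0.0324 CPM, which are 4, 4, 10 and 1 counts. The 4 KO libraries of day 3 held 24, 14, 10 and 19 counts, or 0.57, 0.306, 0.281 and 0.471 CPM. The WT mean of 213 ± 130 CPM (SD, n = 4) was 2050 times the HET mean and 523 times the KO mean. Even the lowest WT library was 521 times the highest HET library and 169 times the highest KO library. By mean, BMP3 was thus the member with the highest level per length in WT at day 3 (15 ± 12 TPM) and the one with the lowest in both edited lines (0.0075 ± 0.005 TPM in HET, 0.0425 ± 0.0287 in KO). The spreads met those of the next member, SMAD7 in WT (7.05 ± 1.98 TPM) and BMP2 in KO (0.09 ± 0.0648). In WT replicate 4 SMAD7 was above BMP3 (6.9 against 4.72 TPM).

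The near-absence of BMP3 at day 3 was not seen at day 0 or at day 7. At day 0 BMP3 stood at 4.74, 0.87, 5.38 and 2.08 CPM in HET and at 0.407, 1.14, 3.13 and 2.68 CPM in KO, overlapping with WT in both. The log2 difference from WT was 0.47 (SE 0.62, adjusted p = 0.832, edgeR) in HET and -0.34 (SE 0.63, adjusted p = 0.911) in KO. At day 7 the WT libraries held 48.5, 9.74, 30.4 and 19.4 CPM, the HET libraries 1.38, 32.3, 14.5 and 9.96, and the KO libraries 7.9, 11.4, 5.31 and 5.43. All 3 genotypes overlapped at this day, and HET ranged from below every KO library to above 3 of the 4 WT libraries. The difference from WT was -1.86 (SE 0.69, adjusted p = 0.0531, edgeR) in KO and -0.91 (SE 0.67, adjusted p = 0.396) in HET, and neither passed the threshold of 0.05. The KO value did pass under 5 of 17 other settings: without WT replicate 2 (-2.14, adjusted p = 0.039), without replicate 1 of WT and of HET together (-1.38, adjusted p = 0.0234), with only KO and WT in the fit (-1.87, adjusted p = 0.0068), without a filter (-1.82, adjusted p = 0.0342), and with the share of structural RNAs as a covariate (-2.97, adjusted p = 0.0183). Under the rest of the 17 it did not pass. Over all 17 the difference ranged from -2.97 to -0.51 and the adjusted p from 0.0068 to 0.514. In deposited TPM the HET mean at day 7 was 2.35 ± 2.84 and that of WT 1.24 ± 0.616, so the direction in HET turned with the scale.

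BMP3 had its highest mean at day 3 in WT and its lowest mean there in both edited lines. In HET every library of day 3 was below every library of day 0, whereas in KO the days overlapped, with replicate 1 at 0.407 CPM at day 0 and 0.57 at day 3. From day 0 to day 3 the fitted log2 change was 6.49 (SE 0.61) in WT, -4.85 (SE 0.93) in HET and -2.18 (SE 0.54) in KO. From day 3 to day 7 it was -2.97 (SE 0.51) in WT, 7.01 (SE 0.98) in HET and 4.24 (SE 0.56) in KO. At day 3, KO held 0.407 ± 0.137 CPM and HET 0.104 ± 0.0626, and their libraries did not overlap.

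**Figure D1:**
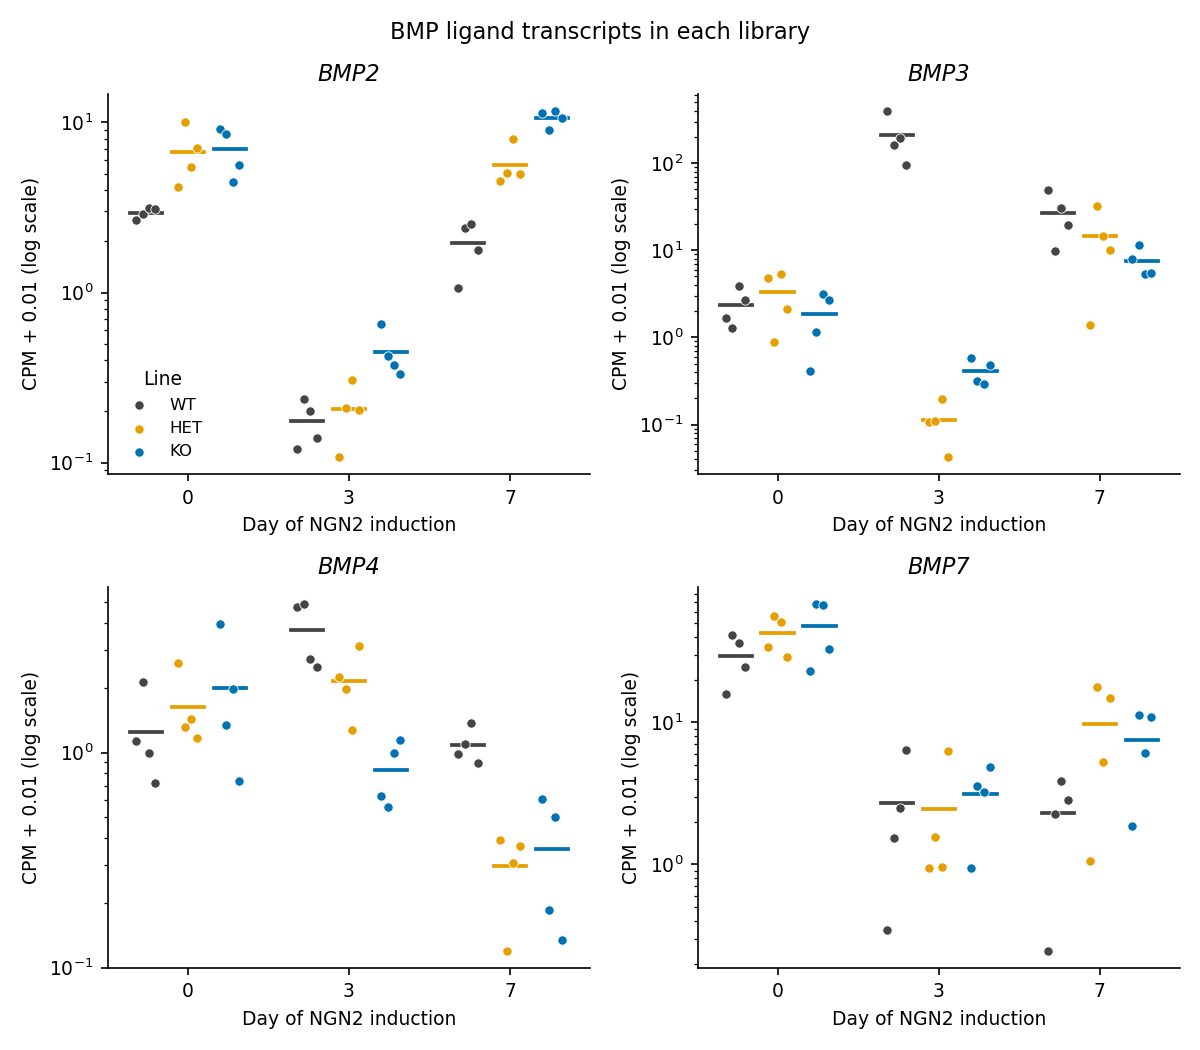
Level of the 4 BMP ligands in each of the 36 libraries (points, CPM + 0.01 on a log axis) by day of NGN2 induction, with horizontal bars at the mean of each genotype (n = 4). For BMP3 the 4 WT libraries of day 3 lie between 96.3 and 398 CPM and all 8 libraries of the edited lines lie under 1 CPM.

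The other ligands were measured on the same libraries, and no value of theirs was used to choose the group. In KO against WT, 2 of the 10 members passed at day 0, 2 of the 9 tested at day 3 and 5 of 10 at day 7, where 2.08%, 21.6% and 32.6% of all tested genes passed. In HET against WT, none of 10 passed at day 0, none of 9 at day 3 and 4 of 10 at day 7, where 1.63%, 3.28% and 14.4% of all genes passed. For the counts of 0, an unadjusted p under 0.05 was reached by 3 members at day 0 and by 0 at day 3, and DESeq2 called 1 and 0. The HET and KO comparisons share the WT libraries as control, so they are not independent of each other. SMAD6 is among those counted at day 7 and was kept by the filter there through WT; leaving it aside, 4 of 9 passed in KO and 3 of 9 in HET. BMP2, counted in KO at day 3, was kept by the filter there through KO. At day 3 the shares of members passing are near these backgrounds. With BMP3 left out at day 3, the libraries of KO and WT did not overlap for 2, 2 and 5 members at days 0, 3 and 7, where 9.21%, 24.9% and 39.8% of all genes did not overlap. For HET and WT this held for 1, 0 and 2 members, where it held for 7.23%, 8.68% and 14.9% of all genes.

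BMP2 (chr20:6767664-6780280, plus strand) encodes a canonical BMP ligand, and it was the member most often higher in the edited lines. At day 7 WT libraries held 1.06, 2.39, 2.52 and 1.77 CPM, HET libraries 4.54, 5.01, 7.94 and 5.0, and KO libraries 11.3, 8.99, 11.7 and 10.6. In CPM the 3 genotypes did not overlap, with WT lowest and KO highest. In deposited TPM the HET libraries held 0.27, 1.76, 2.24 and 0.6, and they overlapped with WT (0.08 to 0.3) and with KO (1.17 to 1.72). On log2(TPM + 1) the HET difference from WT was 0.81 and did not pass (adjusted p = 0.0803, limma). The log2 difference from WT was 2.45 (SE 0.28, adjusted p = 8.14e-05, edgeR) in KO and 1.53 (SE 0.28, adjusted p = 0.00358) in HET. KO exceeded HET by 0.92 (95% interval 0.35 to 1.5), which did not pass the threshold (adjusted p = 0.136, edgeR). At day 0 BMP2 was at 2.65, 2.9, 3.12 and 3.07 CPM in WT, 4.14, 10.1, 5.46 and 7.1 in HET and 9.17, 8.5, 4.47 and 5.63 in KO. Every edited library was above every WT library, but the KO difference passed narrowly (1.27, SE 0.28, adjusted p = 0.0365, edgeR) and the HET difference did not (1.2, SE 0.28, adjusted p = 0.0591). The KO call at day 0 was lost when any of 6 libraries was left out (WT replicates 1 to 4 and KO replicates 1 and 2), with differences of 1.12 to 1.31 and adjusted p of 0.0814 to 0.117. The HET difference passed without HET replicate 1 (1.38, adjusted p = 0.0227).

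At day 3 BMP2 was close to the floor of detection in all genotypes, at 5 to 10 counts in WT, 4 to 16 in HET and 13 to 27 in KO. KO libraries (0.641, 0.416, 0.366 and 0.322 CPM) all exceeded WT libraries (0.111, 0.228, 0.19 and 0.13 CPM), with a log2 difference of 1.38 (SE 0.42, adjusted p = 0.0307, edgeR). This call was lost without any of 5 libraries (WT replicates 1, 3 and 4, KO replicates 1 and 2), where the adjusted p was 0.0553 to 0.112, and it stood at 0.0534 with the structural RNA share as a covariate. BMP2 passed the filter at this day through KO, so the call is a description. Without a filter the difference was 1.41 and did not pass (adjusted p = 0.0689, edgeR). In HET the difference was 0.29 (SE 0.43, adjusted p = 0.836) and the libraries overlapped with WT.

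BMP4 (chr14:53949736-53958761, minus strand), the ligand used in many protocols to drive stem cells away from the neural fate, moved the other way. At day 3 WT held 4.74, 4.89, 2.71 and 2.5 CPM, HET 2.25, 1.97, 1.26 and 3.11, and KO 0.617, 0.547, 0.984 and 1.14. In CPM all KO libraries were below all libraries of the other 2 genotypes. In deposited TPM the KO libraries (0.21 to 0.68) overlapped with those of WT (0.54 to 1.9) and HET (0.37 to 1.16). BMP4 was lower in KO than in WT by a log2 difference of -2.19 (SE 0.38, adjusted p = 0.0012, edgeR), a 4.57-fold decrease. HET was at -0.76 (SE 0.36, adjusted p = 0.367), and KO was also lower than HET (-1.43, SE 0.38, adjusted p = 0.047), where 4.35% of all genes passed and BMP4 was the 1 member of 9 that did. Leaving out any of 6 libraries (HET replicates 1, 2 and 4, KO replicates 1, 2 and 3) ended the call between KO and HET (-1.5 to -1.15, adjusted p 0.0793 to 0.147). That call was also lost in edgeR without a filter (adjusted p = 0.0518) and with only the compared groups (adjusted p = 0.0946). On log2(TPM + 1) neither KO difference passed, at -0.57 from WT (adjusted p = 0.206, limma) and -0.31 from HET (adjusted p = 0.996).

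At day 7 BMP4 was low in all genotypes and lower in both edited lines. WT libraries held 0.976, 1.09, 1.36 and 0.885 CPM, HET libraries 0.383, 0.11, 0.296 and 0.357, and KO libraries 0.596, 0.175, 0.493 and 0.125. No edited library reached the lowest WT library. In deposited TPM the HET mean was above that of WT (0.263 ± 0.323 against 0.217 ± 0.0591), with 1 HET library at 0.74, and KO was at 0.15 ± 0.0816. The log2 difference was -1.63 in KO (SE 0.48, adjusted p = 0.0206, edgeR) and -1.91 in HET (SE 0.49, adjusted p = 0.0206). The counts behind these values are small, 4 to 23 in KO and 4 to 15 in HET. The KO call was lost without WT replicate 3 or KO replicate 2 (adjusted p 0.0537 to 0.0644), and the HET call without WT replicate 3 or HET replicates 2 or 3 (adjusted p 0.0548 to 0.0615). At day 0 BMP4 differed from WT by 0.72 in KO (95% interval -0.32 to 1.76) and by 0.40 in HET (-0.65 to 1.45), and neither passed.

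BMP7 (chr20:57168748-57266629, minus strand) encodes a ligand of the group of BMP5 and BMP6. It is overlapped by the antisense gene BMP7-AS1, and since use of strand in counting is not given in the sources used here, its counts cannot be separated from that gene's. At day 7 WT held 0.237, 2.25, 3.82 and 2.82 CPM, HET 1.05, 17.7, 5.2 and 14.8, and KO 1.84, 11.2, 6.08 and 10.9. Replicate 1 was the lowest library of each genotype, and the edited lines overlapped with WT because of it. HET and KO overlapped with or without it. The log2 difference from WT was 1.72 in KO (SE 0.82, adjusted p = 0.127, edgeR) and 2.08 in HET (SE 0.83, adjusted p = 0.113). Without HET replicate 1 the HET difference passed (2.42, adjusted p = 0.0204). At day 3 the differences were 0.20 (95% interval -1.52 to 1.91) in KO and -0.11 (-1.83 to 1.61) in HET. At day 0 BMP7 was at 29.2 ± 11.4 CPM (SD, n = 4) in WT and 47.7 ± 23.2 in KO, a difference of 0.74 (SE 0.39, adjusted p = 0.482, edgeR). With the replicate number as a block, the day 0 difference was 0.69 and passed (adjusted p = 0.0289, edgeR). At this day the numbers paired KO with WT, but not HET, which was in the same fit, with either. The block was the 1 of 16 other settings under which this difference passed.

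SMAD6 (chr15:66702228-66782848, plus strand) encodes the inhibitory SMAD that is mostly selective for BMP signalling. It overlaps AC013564.1 on the same strand, so reads in the shared part are uncertain. At day 7 WT libraries held 56, 36, 23 and 13 counts (1.66, 0.853, 0.681 and 0.303 CPM). HET libraries held 13, 0, 0 and 1 counts and KO libraries 2, 0, 0 and 0. All KO libraries were thus at or under 3 counts, the floor used here, and SMAD6 passed the filter at day 7 through the WT libraries. Set against a floor of 3 counts per library, SMAD6 was at least 10.6-fold lower in KO than in WT. A gene kept by the filter through 1 group had to differ, so its edgeR calls at day 7 are given as a description. In HET, replicate 1 lay inside the WT range and the other 3 libraries were under the floor. The edgeR call in HET (adjusted p = 0.0419) was lost without any of 6 libraries (WT replicates 1, 2 and 3, HET replicates 2, 3 and 4), at adjusted p of 0.0679 to 0.119.

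At day 3 SMAD6 was at 2.23, 2.14, 1.4 and 1.04 CPM in WT, 0.98, 1.7, 1.13 and 0.454 in HET and 0.855, 1.4, 0.478 and 0.669 in KO. The groups overlapped, and the differences of -1.02 in KO (SE 0.42, adjusted p = 0.097, edgeR) and -0.66 in HET (SE 0.41, adjusted p = 0.531) did not pass. With the replicate block, which at this day paired both edited lines with WT but not KO with HET, the KO difference was -1.04 and passed (adjusted p = 0.0141). At day 0 the means were 4.76 ± 1.46 CPM in WT, 8.40 ± 2.55 in HET and 7.71 ± 3.96 in KO. Neither difference from WT passed (0.83, SE 0.37, adjusted p = 0.41 in HET, and 0.73, SE 0.37, adjusted p = 0.467 in KO).

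SMAD7 (chr18:48919853-48952052, minus strand), the inhibitory SMAD that acts on both the BMP and the TGF-beta branch, was also lower at day 7. WT libraries held 16.9, 17.8, 21.8 and 14.8 CPM, HET libraries 15.5, 6.13, 6.76 and 3.93, and KO libraries 5.83, 6.36, 6.49 and 4.67. Every KO library was below every WT library, and HET replicate 1 lay within the WT range while the other 3 HET libraries lay near KO. The log2 difference from WT was -1.62 (SE 0.34, adjusted p = 0.00325, edgeR) in KO and -1.14 (SE 0.33, adjusted p = 0.0369) in HET. On log2(TPM + 1) neither passed, at -0.70 in KO (adjusted p = 0.268, limma) and -0.22 in HET (adjusted p = 0.584). In TPM HET replicate 2 (3.68) was above every WT library (2.05 to 3.15). The HET call was lost when any of 6 libraries was left out (WT replicates 1, 2 and 3, HET replicates 2, 3 and 4), with differences of -1.16 to -0.92 and adjusted p of 0.0667 to 0.109. At day 3 SMAD7 was at 41.0 ± 8.45 CPM in WT, 32.1 ± 9.90 in HET and 31.9 ± 5.90 in KO. The differences of -0.32 and -0.39 did not pass (adjusted p = 0.595 and 0.244, edgeR). At day 0 the 3 means lay between 19.8 and 21.9 CPM.

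**Figure D2:**
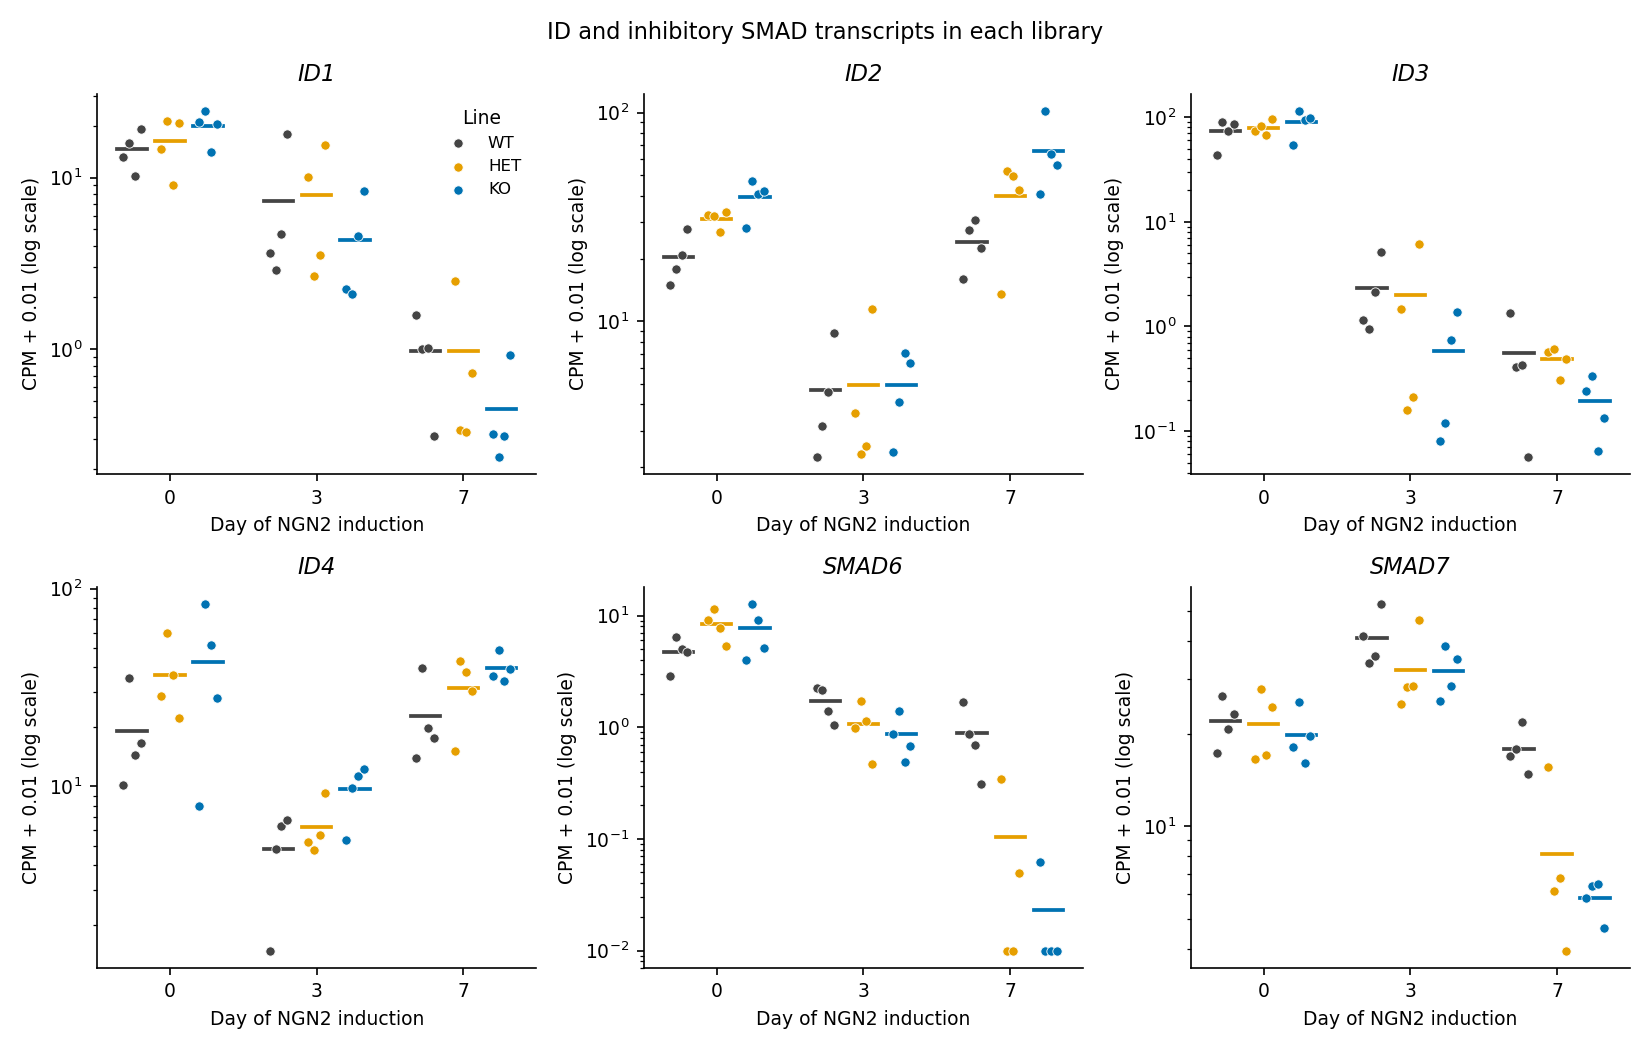
Level of the 4 ID genes and the inhibitory SMADs SMAD6 and SMAD7 in each of the 36 libraries (points, CPM + 0.01 on a log axis) by day, with bars at the mean of each genotype (n = 4). ID2 and ID4 dip at day 3 and are high again at day 7, while ID1 and ID3 are lowest at day 7, and SMAD6 in KO at day 7 lies on the line of 0 counts except for 1 library with 2 counts.

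Among the ID genes only ID2 passed the test against WT in the fit without a block, and only in KO. ID2 (chr2:8678845-8684453, plus strand) encodes an inhibitor of E proteins that is kept on in many neuronal lineages, and it is overlapped by ID2-AS1 on the other strand, so that its counts carry the same uncertainty as those of BMP7. At day 0 it was at 15, 17.9, 20.7 and 27.6 CPM in WT, 32.4, 31.9, 26.7 and 33.3 in HET and 27.9, 46.9, 40.7 and 42.1 in KO. All KO libraries were above all WT libraries, by a log2 difference of 0.99 (SE 0.19, adjusted p = 0.0141, edgeR). HET was at 0.63 (SE 0.19, adjusted p = 0.17), and 3 of its 4 libraries exceeded the highest WT library. The KO call moved to an adjusted p of 0.0522 without WT replicate 2 (difference 0.93), and the HET difference passed without WT replicate 4 (0.81, adjusted p = 0.0495).

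At day 3 ID2 was about equal in the 3 genotypes, with means of 4.68 ± 2.89 CPM in WT, 4.97 ± 4.35 in HET and 4.96 ± 2.14 in KO. The 95% intervals of the log2 differences were wide, -1.15 to 1.27 for KO and -1.08 to 1.34 for HET. At day 7 WT libraries held 15.9, 27.3, 30.6 and 22.4 CPM, HET libraries 13.5, 52.8, 49.6 and 42.8, and KO libraries 40.8, 102, 63.2 and 55.8. KO was higher than WT in every library (1.44, SE 0.38, adjusted p = 0.0117, edgeR). For HET, 3 of 4 libraries were above all WT libraries and replicate 1 was below them all, and the difference of 0.71 (SE 0.37) did not pass (adjusted p = 0.228). It passed without that library (0.97, adjusted p = 0.0162). With the structural RNA share as a covariate, the day 7 difference of ID2 in KO was 0.83 and did not pass (adjusted p = 0.0541), nor did those of BMP4 in KO (-1.38, adjusted p = 0.0732) and in HET (-1.71, adjusted p = 0.0591) or of SMAD7 in HET (-0.90, adjusted p = 0.0694). The covariate also brought differences past the threshold: SMAD6 (-1.36, adjusted p = 0.00559) and ID4 (1.27, adjusted p = 0.0198) in KO at day 3, and ID2 in HET at day 0 (0.74, adjusted p = 0.0202).

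ID4 (chr6:19837386-19840684, plus strand), known for its role in the timing of neural progenitor differentiation and overlapped on the other strand by AL022068.1, had means above WT in both edited lines at every day, but no difference passed. At day 3 it was at 1.47, 4.8, 6.33 and 6.74 CPM in WT, 5.22, 4.77, 5.68 and 9.26 in HET and 5.32, 9.82, 11.3 and 12.2 in KO. KO replicate 1 lay within the WT range and the other 3 KO libraries lay above it. The KO difference was 0.97 (SE 0.41, adjusted p = 0.112, edgeR), and 1.06 with the replicate block, where it passed (adjusted p = 0.00911). At day 7 it was 0.79 in KO (SE 0.34, adjusted p = 0.0922, edgeR), which passed without WT replicate 2 (1.21, adjusted p = 0.0114), and 0.46 in HET (SE 0.34, adjusted p = 0.405).

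ID1 (chr20:31605283-31606515, plus strand) and ID3 (chr1:23557918-23559794, minus strand), both immediate targets of BMP signalling in stem cells, did not differ from WT beyond the replicate spread in that fit at any day. At day 3 ID1 was at 3.61, 2.87, 4.71 and 17.9 CPM in WT, 10.1, 2.65, 3.52 and 15.5 in HET and 2.23, 2.08, 4.56 and 8.32 in KO. Replicate 4 was the highest library of each genotype, as it was for POU5F1, and the part of that in the level of ID1 was not tested. The log2 differences were -0.78 (SE 0.69, adjusted p = 0.449, edgeR) in KO and 0.17 (SE 0.69, adjusted p = 0.949) in HET. ID3 at day 3 was at 1.14, 0.933, 2.14 and 5.12 CPM in WT, 1.45, 0.15, 0.204 and 6.19 in HET, and 0.0712, 0.109, 0.731 and 1.36 in KO. Within each replicate number KO was below WT, but the groups overlapped, and the difference of -2.06 (SE 1.11) did not pass (adjusted p = 0.209, edgeR). It was -2.33 and passed with the replicate block (adjusted p = 0.0187), so that 5 of 9 members passed in KO at day 3 under the block (BMP2, BMP4, SMAD6, ID3 and ID4), against 2 without it. The share of all genes that passed rose as well under the block, from 21.6% to 37.7%. For HET at day 3 the block, whose numbers also paired, left the count at 0. At day 7 both genes were low, at 0.968 ± 0.518 CPM for ID1 and 0.548 ± 0.548 for ID3 in WT, and the KO differences of -1.16 (SE 0.72) and -1.54 (SE 0.74) did not pass (adjusted p = 0.234 and 0.126, edgeR). The ID3 difference passed without WT replicate 4 (-1.93, adjusted p = 0.0274).

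**Figure D3:**
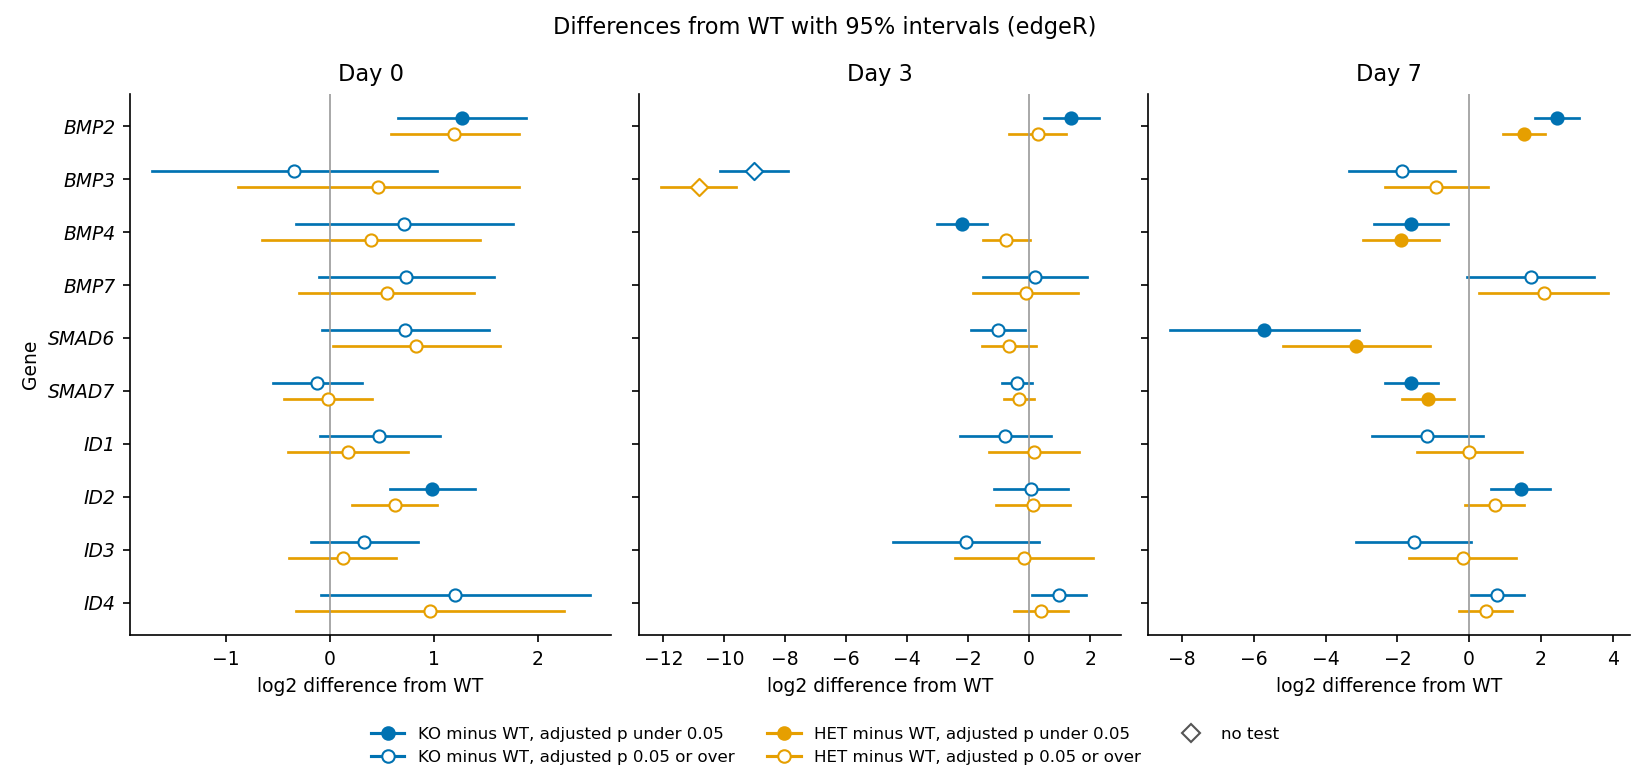
Log2 difference from WT of the 10 members in KO (blue) and HET (orange) at days 0, 3 and 7, with 95% intervals from the edgeR fit of each day (12 libraries); filled points passed an adjusted p of 0.05, open points did not, and diamonds (BMP3 at day 3) were not tested. Each panel has its own horizontal scale. At day 7 BMP2 lies above 0 and BMP4, SMAD6 and SMAD7 below 0 in both lines.

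KO and HET were also set directly against each other at days 0 and 7, where few genes of any kind passed. None of 10 members passed at day 0, where 0.856% of all genes did, and none of 10 at day 7, where 1.40% did. Against such low backgrounds these counts cannot show whether the members were alike in KO and HET. An unadjusted p under 0.05 was reached by 0 members at day 0 and by 1 at day 7, and DESeq2 called 0 and 1. The 1 member was BMP2 at day 7 (0.93, adjusted p = 0.0219, DESeq2), which edgeR also called without HET replicate 3 (1.13, adjusted p = 0.048).

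The time course in WT divided the members into several courses. From day 0 to day 3, 8 of the 9 tested members passed, 6 lower and 2 higher, where 60.0% of all genes passed, 28.7% lower and 31.2% higher. The log2 change was -4.14 for BMP2 (SE 0.34, adjusted p = 1.48e-07, edgeR), -3.46 for BMP7 (SE 0.73), -4.99 for ID3 (SE 0.61), -2.12 for ID2 (SE 0.36), -1.99 for ID4 (SE 0.47) and -1.48 for SMAD6 (SE 0.41). BMP4 rose by 1.57 (SE 0.34, adjusted p = 0.00105) and SMAD7 by 0.90 (SE 0.18, adjusted p = 0.000488). The change of ID1 was -1.01 (SE 0.52, adjusted p = 0.104) with all libraries and -1.97 (adjusted p = 0.000641) without WT day 3 replicate 4. For SMAD7 the deposited TPM values gave -0.13 (adjusted p = 0.6, limma) in place of the rise. For BMP4 they gave 0.34, which did not pass (adjusted p = 0.12, limma). Over all genes the TPM median was itself at -0.63, against 0.07 in counts.

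From day 3 to day 7 in WT, 7 of 9 members passed, 3 higher and 4 lower, where 46.2% of all genes passed, 23.3% higher and 22.9% lower. BMP2 rose again by 3.55 (SE 0.34, adjusted p = 1.15e-06, edgeR), ID2 by 2.37 (SE 0.36, adjusted p = 8.84e-05) and ID4 by 2.25 (SE 0.48, adjusted p = 0.00136). The change was -1.78 for BMP4 (SE 0.34), -1.2 for SMAD7 (SE 0.18), -2.91 for ID1 (SE 0.58) and -2.11 for ID3 (SE 0.65, adjusted p = 0.0151). That of ID3 was -1.40 without WT day 3 replicate 4 and then did not pass (adjusted p = 0.0652). Per length, the order of the ID genes in WT went from ID3 first at day 0 (80.7 ± 17.5 TPM, SD, n = 4), ahead of ID1 (14.7 ± 2.73) and ID2 (14.7 ± 2.72), which did not differ beyond their spread, and ID4 (3.91 ± 2.1), to ID2 first at day 7 (7.48 ± 2.52 TPM), ahead of ID4 (2.04 ± 1.65), ID1 (0.303 ± 0.154) and ID3 (0.225 ± 0.198), of which the last 2 lay within each other's spread.

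BMP2, ID2 and ID4 fell by day 3 and rose by day 7 in both edited lines as well. In HET, 6 of 9 members fell by day 3 (BMP2, BMP7, SMAD6, ID2, ID3 and ID4) and none rose, where 48.3% of all genes passed, 23.9% lower and 24.4% higher. From day 3 to day 7 in HET, BMP2, ID2 and ID4 rose and BMP4, SMAD6, SMAD7 and ID1 fell, where 41.2% of all genes passed, 20.8% higher and 20.5% lower. In KO all 9 tested members passed by day 3, SMAD7 higher (0.66, SE 0.18) and 8 lower, where 59.3% of all genes passed, 29.7% higher and 29.6% lower. On log2(TPM + 1) the change of SMAD7 in KO was 0.15 and did not pass (adjusted p = 0.772, limma). The drop was largest for ID3, from 90.1 ± 25.5 CPM to 0.569 ± 0.61 (-7.35, SE 0.65, adjusted p = 4.45e-07, edgeR). From day 3 to day 7 in KO, BMP2, ID2 and ID4 rose and SMAD6, SMAD7 and ID1 fell, where 47.8% of all genes passed, 24.3% higher and 23.6% lower. ID2 went from 4.96 ± 2.14 to 65.5 ± 26.2 CPM (3.78, SE 0.36, adjusted p = 1.57e-06), and SMAD6 was at least 10.3-fold lower at day 7 than at day 3. BMP4, which rose in WT from day 0 to day 3, changed by 0.43 in HET (SE 0.41, adjusted p = 0.411, edgeR) and by -1.31 in KO (SE 0.53, adjusted p = 0.0473). That KO call was lost without any of 5 libraries (KO day 0 replicates 1 and 3, KO day 3 replicates 1, 2 and 3), with changes of -1.37 to -0.74. It was also lost in edgeR without a filter, with the replicate block, with only the compared groups and with the structural RNA covariate (adjusted p 0.0505 to 0.0791). On log2(TPM + 1) it was lost as well (-0.53, adjusted p = 0.0704, limma).

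The difference between the courses was tested as an interaction over all 36 libraries. For KO against WT from day 0 to day 3, BMP4 was the 1 member of 9 that passed, at -2.89 (SE 0.64, adjusted p = 0.00396, edgeR), where 8.42% of all genes passed. With the replicate block, whose numbers paired KO with WT within each of these days but not the days with each other, SMAD6 (-1.67, adjusted p = 0.0201) and ID3 (-2.60, adjusted p = 0.0105) passed too, and the count over all genes rose from 2086 to 3703 of 24764. On log2(TPM + 1) the BMP4 interaction was -0.87 and did not pass (adjusted p = 0.226, limma). From day 3 to day 7, SMAD6 (-4.66, SE 1.15, adjusted p = 0.00372, a fitted value that depends on libraries at 0 counts) and SMAD7 (-1.19, SE 0.39, adjusted p = 0.0289) passed, where 18.6% of all genes did. The SMAD7 interaction was -1.1 and did not pass without WT day 3 replicate 2 or KO day 3 replicate 2 (adjusted p 0.0579 to 0.0626). For HET against WT none of 9 passed in either interval, where 0.279% and 4.82% of all genes passed. An unadjusted p under 0.05 was reached by 0 members in the first and 3 in the second interval, and DESeq2 called 0 and 1. Without HET day 7 replicate 1, SMAD6 (-5.38, adjusted p = 0.00191) and SMAD7 (-1.33, adjusted p = 0.00693) passed in the second. For BMP3, with no test, the interaction from day 0 to day 3 was -8.68 (SE 1.03) in KO and -11.29 (SE 1.13) in HET.

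The rest of the pathway was read from 74 genes in 6 lists. At day 3, 25 of the 56 that could be tested passed in KO (17 higher, 8 lower), or 44.6%, and 5 in HET (4 higher, 1 lower), or 8.93%, beside 21.6% and 3.28% of all genes. At day 7, 22 of 55 passed in KO (9 higher, 13 lower), or 40.0%, and 9 in HET (5 higher, 4 lower), or 16.4%, beside 32.6% and 14.4% of all genes. The HET share at day 7 is near its background. Without replicate 1 of WT and of HET, the HET count at day 7 was 21 (9 higher, 12 lower), or 38.2%, beside 7455 of 21925 for all genes. At day 0, 2 of 64 passed in KO and 3 in HET, all higher, or 3.12% and 4.69%, beside 2.08% and 1.63% of all genes. These counts include genes that the filter kept through the groups where they were high. They are BMPER, TFAP2A and TBX3 at day 3, and GDF6, TFAP2A, FST, ACVRL1 and BMPR1B at day 7. The same held for INHBA and SP5 in HET at day 0. The shares are therefore a description. With the replicate block, where the numbers paired the edited line with WT, 8 passed in KO at day 0 (12.5%), 30 in KO at day 3 (53.6%) and 10 in HET at day 3 (17.9%), beside 4.70%, 37.7% and 8.79% of all genes. The median log2 difference of the tested genes was 0.06 at day 3 and -0.21 at day 7 in KO, beside -0.05 and -0.04 over all genes. On log2(TPM + 1) with limma, 4 of 39 passed in KO at day 3, all higher, and 0 of 37 at day 7, beside 4.65% and 5.98% of all genes. In HET, 0 of 39 and 1 of 37 passed, beside 0.224% and 3.74%. The KO medians in TPM were 0.62 and 0.35, beside 0.33 and 0.30 over all genes.

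The counts of each list below stand against the same backgrounds, in KO 21.6% of all genes at day 3 and 32.6% at day 7, and in HET 3.28% and 14.4%. Of the other BMP and GDF ligands, 2 of 8 were higher in KO at day 3 and none was lower (list median 0.05). At day 7, 2 of 9 were higher and 2 lower in KO (list median -0.19). BMP8A, a ligand with the close copy BMP8B and therefore of uncertain count, was the ligand higher than WT in both lines at all 3 days: at day 3 it was at 0.403 ± 0.267 CPM in WT, 2.80 ± 0.425 in HET (2.79, SE 0.43, adjusted p = 0.00221, edgeR) and 3.22 ± 0.818 in KO (2.95, SE 0.43, adjusted p = 0.000371). GDF7, a roof plate ligand, was at 0.932 ± 0.195 CPM in WT and 3.63 ± 0.108 in KO at day 0 (1.99, SE 0.18, adjusted p = 3.52e-05). GDF6 was higher at day 7 in KO (2.42, SE 0.44, adjusted p = 0.00129) and HET (1.67, SE 0.44, adjusted p = 0.0233), at levels of 0.760 ± 0.332 and 0.448 ± 0.182 CPM against 0.140 ± 0.0342 in WT. GDF6 passed the filter through the edited lines, so these calls are a description. GDF11 was higher in KO at day 3 (1.04, SE 0.19, adjusted p = 0.0017). NODAL, a ligand of the activin branch, was lower in KO at day 7, at 0.742 ± 0.123 CPM against 1.41 ± 0.321 in WT (-0.93, SE 0.30, adjusted p = 0.0303).

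Of the extracellular and membrane antagonists, 3 of 11 were higher and 4 lower in KO at day 3 (list median -0.56). BMPER, an extracellular BMP modulator, was at 0.117 ± 0.0503 CPM in WT and 7.28 ± 5.26 in KO (5.90, SE 1.06, adjusted p = 0.00156, edgeR). BMPER passed the filter through groups other than WT, so that call is a description. CHRD, which encodes the antagonist chordin, was lower, at 97.4 ± 22.2 CPM in WT and 33.3 ± 7.29 in KO (-1.57, SE 0.28, adjusted p = 0.00159). At day 7, FST (follistatin) and BAMBI, a pseudoreceptor and BMP target, were lower in KO (-3.18, SE 0.53, and -1.70, SE 0.49), and CHRDL1 was higher in KO (1.56, SE 0.27) and HET (1.2, SE 0.27, adjusted p = 0.0109). FST, at 0.0813 ± 0.0548 CPM in KO and 0.759 ± 0.215 in WT, passed the filter through groups other than KO, so its call is a description. In the day 7 list as a whole, 1 of 12 was higher and 3 lower in KO (median -0.02).

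Among receptors and co-receptors, 4 of 14 were higher and 1 lower in KO at day 3 (list median 0.19). BMPR2, the type II BMP receptor, was at 75.3 ± 24.9 CPM in WT and 182 ± 57.6 in KO (1.25, SE 0.38, adjusted p = 0.0311, edgeR), and the co-receptor RGMB at 23.4 ± 3.60 and 49.9 ± 10.1 (1.07, SE 0.17, adjusted p = 0.00053). TGFBR3 was lower (-1.39, SE 0.30, adjusted p = 0.00489). At day 7, where 2 of 13 were higher and 3 lower in KO, BMPR2 was still higher (0.80, SE 0.24, adjusted p = 0.0228), and the type I receptor genes ACVRL1 (-3.65, SE 0.67) and BMPR1B (-1.44, SE 0.47) were lower. ACVRL1 was at 0.0454 ± 0.0319 CPM in KO and 0.624 ± 0.243 in WT, and BMPR1B at 0.207 ± 0.0941 and 0.569 ± 0.163. Both passed the filter through groups other than KO, so their calls are a description. In the list of signal-transducing SMADs and regulators, 4 of 11 were higher and 1 lower in KO at day 3 (median 0.35). The 1 lower gene was SMAD3, of the TGF-beta branch (71.9 ± 19.9 CPM in WT, 17.1 ± 9.62 in KO, -2.10, SE 0.32, adjusted p = 0.000522), and SKI and SKIL, repressors of SMAD-driven transcription, were higher by 0.99 (SE 0.18) and 1.00 (SE 0.24). SKI was lower in KO at day 7 (-0.97, SE 0.21, adjusted p = 0.00369).

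Of the other BMP target genes, 2 of 9 were higher and 2 lower in KO at day 3 (median -0.58). HEY1, a transcriptional repressor also driven by Notch, was at 2.08 ± 0.824 CPM in WT, 4.83 ± 0.688 in HET (1.24, SE 0.30, adjusted p = 0.0412, edgeR) and 8.23 ± 1.62 in KO (1.97, SE 0.31, adjusted p = 0.000576). TBX3 was at 1.47 ± 1.12 CPM in WT and nearly undetected in KO (0.0356 ± 0.0712), while TFAP2A was higher in KO at day 3 (3.70, SE 0.94, adjusted p = 0.013) and day 7 (4.07, SE 0.69, adjusted p = 0.000857). TFAP2A was near the floor in WT, at 0.0412 ± 0.0379 CPM at day 3 and 0.128 ± 0.0676 at day 7. It passed the filter through groups other than WT, so its calls, like those of SMAD6, are a description. TBX3 passed the filter at day 3 through groups other than KO and is a description too. ATOH8 was lower in HET at day 3 (172 ± 26.5 CPM in WT, 69.2 ± 23.2 in HET, -1.28, SE 0.25, adjusted p = 0.0111). Of the 3 E protein genes, whose products the ID proteins bind, 2 were higher in KO at day 3 and 2 lower at day 7. TCF12 (1.38, SE 0.19, adjusted p = 0.00022) and TCF4 (0.67, SE 0.17, adjusted p = 0.0128) were higher at day 3, and TCF4 (-1.61, SE 0.29, adjusted p = 0.0014) and TCF3 (-1.53, SE 0.23, adjusted p = 0.00045) were lower at day 7. In HET, TCF3 was lower at day 7 (-1.04, SE 0.23, adjusted p = 0.00941).

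Cell-type markers moved on the same libraries, and their part in the results above was not tested. Their counts stand against the same backgrounds as those of the pathway lists. All 7 neuronal markers were higher in KO at day 3 and 3 of 7 in HET, with summed levels of 4420 to 7530 CPM in KO, 1700 to 4310 in HET and 1280 to 1560 in WT, and 4 and 2 of 7 were higher at day 7. Of 5 markers of dividing cells, 2 were lower in KO at day 3 (summed 396 to 1160 CPM against 1060 to 2160 in WT), and all 5 were lower in both lines at day 7 (11.9 to 15 in KO, 10.8 to 23.9 in HET, 30.9 to 196 in WT). Of the 2 mesenchyme markers tested at day 7, both were lower in KO and 1 in HET (sums of 0.903 to 3.55 CPM in KO, 1.04 to 28.8 in HET and 26 to 35 in WT, where DCN, TWIST1, LUM and COL3A1 were at 3 counts or fewer in every WT library). Of 6 amnion and surface ectoderm markers, which BMP is known to raise in stem cells, 1 was tested and higher in KO at day 3, with KRT7 and HAND1 at 3 counts or fewer in every KO library. For these the sum was 5.2 to 9.69 CPM in KO, 1.71 to 3.54 in HET and 0.627 to 2.63 in WT at day 3, and 15.7 to 50, 2.65 to 19.4 and 5.82 to 17.3 at day 7, when 1 of 4 was higher in each line. Neural crest markers at day 3 were split, 2 of 5 higher and 1 lower in KO and 1 higher in HET, and at day 7 1 of 6 was higher and 1 lower in KO and 1 lower in HET. Pluripotency markers gave 1 of 4 higher in KO at day 3, and 1 of 3 higher and 2 lower in KO and 1 higher in HET at day 7. Astrocyte markers gave 1 of 3 lower in KO at day 3, and 1 higher and 1 lower at day 7. The 1 mesendoderm marker tested at day 3 passed in neither line, and TBXT and SOX17 were at 3 counts or fewer in every library of day 3.

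None of the tested genes around BMP3 was called lower in either line at day 3. The annotation places 16 other genes wholly or partly within 1 Mb of BMP3, of which 5 were expressed enough to be tested at day 3 and the others were not tested. PRKG2, the nearest of these (184 kb from start to start), was at 0.619 ± 0.16 CPM in WT, 1.05 ± 0.797 in HET and 3.23 ± 1.7 in KO. It was higher in KO (2.35, SE 0.53, adjusted p = 0.00684, edgeR). RASGEF1B, 1013 kb away by its start, was at 130 ± 40.7 CPM in WT and 242 ± 38.9 in KO (0.87, SE 0.25, adjusted p = 0.0238). Upstream of BMP3, 3 others (ANTXR2, PRDM8 and AC021127.1) start at -906 to -841 kb and passed in neither line, and none of the 5 passed in HET.

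**Figure D4:**
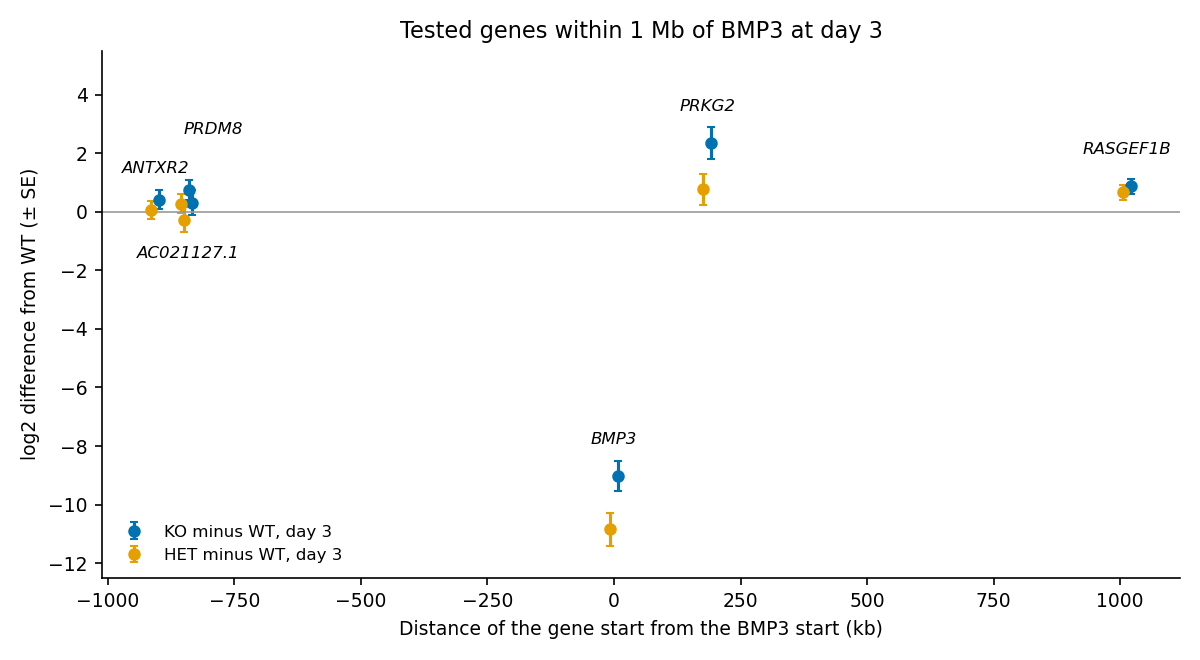
Log2 difference from WT at day 3 (± SE, edgeR) of BMP3 and of the 5 tested genes within 1 Mb of it, plotted by the distance of their start from the BMP3 start in kb, for KO (blue) and HET (orange). BMP3 lies at -9.03 in KO and -10.84 in HET, and the neighbours lie between -0.27 and 2.35.

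Genes with the course most like that of BMP3 were ranked by Pearson's r over the 9 group means of log2(CPM + 1), among 13975 genes with a mean of at least 5 CPM in their highest group. The means come from libraries scaled together, and r is a description. Among the closest were RASSF8-AS1 (r = 0.936), GINM1 (0.929), TSTD1 (0.903) and RASSF8 (0.882). RASSF8 was at 331 CPM in WT at day 3, 35.5 in HET and 34.1 in KO, and like BMP3 it was highest in the WT group of day 3. For ID1 the 5 closest were ANP32E (r = 0.997), CENPI (0.995), TIMELESS (0.995), ERCC6L (0.995) and TEFM (0.994), of which CENPI, TIMELESS and ERCC6L are known from chromosome replication and segregation. For ID4 they were VANGL2 (r = 0.992), ZNF773 (0.986), IQCK (0.983), CNTNAP2 (0.977) and ZNF613 (0.975), and CNTNAP2, a neuronal adhesion gene, went from 3.26 CPM in WT to 8.38 in HET and 37.4 in KO at day 3.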

How the data were processed

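Per the labels' protocols, total RNA was depleted of ribosomal RNA and read in pairs of 151 bp. The submitters' processing notes name cutadapt 4.8, FastQC 0.11.8, MultiQC 1.20, STAR 2.7.8a, RSEM 1.3.3 and GRCh38, and the annotation release and use of strand are not given in the sources used here. The deposited tables used hold RSEM's expected counts (every value was whole) and the authors' TPM. The 4 reporter sequences in the table, at most 0.017% of a library, were left out. Of 62710 gene identifiers, 58274 (92.9%) matched GENCODE 29, which gave positions.

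Genotypes were compared within a day and days within a genotype, on 12 libraries each, and interactions on all 36, in 19 comparisons. The test was edgeR 4.0.16 (R 4.3.3) with TMM scaling, filterByExpr, the quasi-likelihood F test and Benjamini-Hochberg adjustment over all genes tested, at 0.05. SEs are the log2 difference over the root of F. Levels are CPM scaled over all 36 libraries. Libraries total 23.9 to 56.7 M counts, and 3 counts were taken as the floor, which covers counting error only.

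The members, gene lists and rules were chosen with earlier results of these data known. Named pathway genes are, per list and comparison with WT, up to 3 called genes with the largest change and no overlap with WT, and NEUROG2, POU5F1, TUBB3 and RAI1 were named as checks. Some genes that these rules select are not reported here. The other settings tried were scaling by library size alone or by DESeq2 size factors, the DESeq2 1.42.0 test, limma 3.58.1 on log2(TPM + 1) for genes with a mean TPM of at least 0.5 in 1 group, no filter, the replicate number as a block, only the compared groups, and leaving out each library. A covariate for the structural RNA share, and leaving out replicate 1 of WT and of HET at day 7 together, were chosen after seeing the data. No label ties a replicate number to a batch or day. Deviations of same-numbered libraries from their group means correlated in every pair (r over 0.1) in 3 comparisons, KO and WT at day 0 (r 0.29 to 0.69) or day 3 (r 0.13 to 0.59), and HET and WT at day 3 (r 0.16 to 0.80), and there the block counts as a pairing. The block was fitted on all 12 libraries of a day, and some of these did not pair: replicate 1 of HET with WT (r -0.041) or KO (r -0.097) at day 0, and with KO at day 3 (r -0.084). The scripts were tested on simulated data. Promoter sequences are RefSeq's, on GRCh38.p14, which held 7 of the 10 members. Figures were drawn with matplotlib 3.10.9.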

Additional observations from a re-analysis of the deposited data

Results flagged for a closer look

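In 7 of the 90 groups of 4 libraries (10 members in 9 groups), 1 library stood far from the other 3 by Dixon's test at its 95% level, where chance gives about 4.5. At day 3, replicate 4 was such a library for ID1 in WT (17.9 CPM, others 2.87 to 4.71) and, in HET, for BMP7 (6.28 CPM, others 0.931 to 1.55), SMAD7 (46.8 CPM, others 25.0 to 28.5) and ID2 (11.4 CPM, others 2.3 to 3.65). At day 7 the libraries apart were HET replicate 3 for BMP2 (7.94 CPM, others 4.54 to 5.01), HET replicate 1 for SMAD6 (0.332 CPM, others 0.0 to 0.0397) and KO replicate 4 for ID1 (0.91 CPM, others 0.225 to 0.311).

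For 3 members the change between days differed between KO and WT by the interaction test in edgeR: BMP4 from day 0 to day 3 (-2.89 on the log2 scale), and SMAD6 (-4.66) and SMAD7 (-1.19) from day 3 to day 7. The value of SMAD6 is a fitted one that depends on KO libraries of 2, 0, 0 and 0 counts at day 7, and gives no bound on the size of the difference.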

How the results depend on the processing

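The counts of members called kept within 1.5 times their value under DESeq2 size factors and under library size alone in all 19 comparisons. On log2(TPM + 1) with limma the count was 1 of the members for KO against WT at day 0 (2 in the edgeR fit without a block) and 1 at day 7 (5 in that fit). It was 0 for KO at day 3, HET at day 7, KO against HET at day 3 and both KO interactions. TPM also reversed the change of SMAD7 in WT from day 0 to day 3 (-0.13), and TPM medians over all genes lay between -0.63 and 0.62, depending on the comparison. The cause of these differences was not tested. Without a filter the count was 1 for KO at day 3, 1 for HET at day 0 and 0 for KO against HET at day 3. DESeq2 gave 1 for HET at day 0, 1 for KO against HET at day 7 and 1 for the second HET interaction. With only the compared groups in the fit, fewer libraries informed the spread, and HET at day 7 had 2 calls and KO against HET at day 3 had 0. The structural RNA share as a covariate gave 1 for HET at day 0, 2 for HET at day 7 and 1 for KO against HET at day 7. Leaving out replicate 1 of WT and of HET at day 7 together gave 2 for the second HET interaction.

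With the replicate block, the count was 5 for KO at day 3, 1 for HET at day 0, 3 for the KO interaction from day 0 to day 3 and 2 for the HET interaction from day 3 to day 7, and no other count moved by over 1.5 times. The calls over all genes rose as well in these comparisons: from 21.6% to 37.7% for KO at day 3, from 1.63% to 3.37% for HET at day 0, from 2086 to 3703 of 24764 genes for that KO interaction, and from 4.82% to 8.10% for that HET interaction. At day 7, where the numbers did not pair the libraries, BMP7 passed under the block in KO (1.83, adjusted p = 0.00622) and HET (1.92, adjusted p = 0.0104), and ID4 in KO (0.91, adjusted p = 0.0127). Only the KO comparisons with WT at days 0 and 3 and that of HET at day 3 were paired by their numbers.

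Leaving out 1 library at a time, the count ranged from 0 to 2 for KO at day 0, 1 to 2 at day 3 and 4 to 7 at day 7. For HET it ranged from 0 to 1 at day 0, was 0 at day 3, and ranged from 1 to 6 at day 7. For KO against HET it ranged from 0 to 1 at day 3 and at day 7 and was 0 at day 0, for the KO interactions from 1 to 2, and for the second HET interaction from 0 to 2. Counts were low for SMAD6 in both edited lines, BMP4 and ID3 at day 7, and for BMP2 and, in the edited lines, BMP3 at day 3, and depth limits these values.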
